A study of Homo sapiens with 4 samples.

Results

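The 10 genes described here, GAS5, ZFAS1, SNHG1, SNHG5, SNHG6, SNHG7, SNHG8, SNHG12, SNHG15 and SNHG16, are long non-coding genes that host small nucleolar RNAs (snoRNAs). They were chosen by symbol, and all 10 were found among the 23622 genes of the deposited table. All 10 passed the filter on low values, which kept the 14120 genes whose normalized count reached 10 in 2 or more libraries. The cells were MV4-11, an established human acute myeloid leukemia line with a rearranged MLL gene and an internal tandem duplication in FLT3, labelled wild type in all 4 libraries. The 2 control libraries (sh-NC) are labelled as untreated, while the Methods of the study describe a lentiviral control hairpin followed by puromycin selection. The 2 knockdown libraries (sh-IRF1) came from cells with a hairpin against IRF1, a transcription factor of the interferon response. The sources used here do not state which hairpin made each knockdown library, and whether replicates were separate infections is also not stated, so p-values measure only the spread between these libraries.

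A snoRNA host gene makes a spliced transcript whose exons carry no long reading frame, while the snoRNAs are cut out of its introns. The snoRNAs of the box C/D class guide ribose methylation and those of the box H/ACA class guide pseudouridylation, mainly of ribosomal RNA. Many host transcripts begin with a terminal oligopyrimidine (TOP) tract, a C followed by a run of C or T, as the mRNAs of ribosomal proteins do. Their spliced form is bound by ribosomes and degraded by nonsense-mediated decay (NMD), and GAS5 was named for its accumulation in growth-arrested cells. The level of the spliced transcript therefore reads both how much of the host is made and how fast it is broken down, and it is not a measure of the snoRNAs.

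RefSeq places 37 snoRNAs inside the 10 hosts, of which 28 are named as box C/D and 8 as box H/ACA. GAS5 holds 11, SNHG1 holds 9, SNHG12 holds 4, ZFAS1 and SNHG16 hold 3 each, SNHG5 and SNHG7 hold 2 each, and SNHG6, SNHG8 and SNHG15 hold 1 each. Shown here are a few snoRNAs of SNHG1 and the snoRNA of SNHG8, because these hosts had the largest decreases of the 10. They were read from hg38 at the RefSeq coordinates, 5′ to 3′, as DNA. In the first sequences the capitals mark the letters TGATGA of box C near the start and CTGA of box D near the end, and in SNORA24 they mark the ACA box. The snoRNAs of SNHG1 shown all have both. In SNORD22, SNORD26 and SNORD28 of SNHG1, not shown, the letters TGATGA were not found near the start.
SNORD25, chr11:62855565-62855631, minus strand: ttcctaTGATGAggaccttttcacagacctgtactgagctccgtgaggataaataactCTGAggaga
SNORD27, chr11:62855012-62855083, minus strand: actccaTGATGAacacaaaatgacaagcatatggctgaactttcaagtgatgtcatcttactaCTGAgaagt
SNORD29, chr11:62853904-62853968, minus strand: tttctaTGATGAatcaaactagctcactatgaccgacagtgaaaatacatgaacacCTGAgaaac
SNORD31, chr11:62853326-62853393, minus strand: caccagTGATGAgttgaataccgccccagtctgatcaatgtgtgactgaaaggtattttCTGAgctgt
SNORA24, chr4:118279190-118279320, plus strand: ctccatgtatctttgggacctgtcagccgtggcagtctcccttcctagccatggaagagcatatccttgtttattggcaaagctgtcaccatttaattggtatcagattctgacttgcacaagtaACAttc

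The starts of the hosts are shown because a TOP start is the feature for which this gene class is known. RefSeq promoter windows (GRCh38.p14) were found for 8 of the 10 genes, and not for SNHG6 and SNHG15. Each sequence runs from 45 bases before the RefSeq start to 25 bases from it, 5′ to 3′ on the strand of the host. Capitals mark the letters TATAA, where present between 45 and 15 bases before the start, and the unbroken run of C and T that begins at the start itself. Positions and distances of genes are given elsewhere by the GENCODE start. The start of the RefSeq window differed from it in all of the genes shown but SNHG7. In ZFAS1 and SNHG12 the window start lies inside the RefSeq gene, whose outer start is at 49278178 and at 28582983.
SNHG1, chr11:62855861-62855930, minus strand: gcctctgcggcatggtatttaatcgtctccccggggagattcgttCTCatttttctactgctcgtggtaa
SNHG8, chr4:118278717-118278786, plus strand: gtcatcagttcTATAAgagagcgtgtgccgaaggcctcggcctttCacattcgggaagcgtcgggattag
ZFAS1, chr20:49278597-49278666, plus strand: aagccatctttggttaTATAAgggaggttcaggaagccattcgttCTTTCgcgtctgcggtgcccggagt
SNHG5, chr6:85678709-85678778, minus strand: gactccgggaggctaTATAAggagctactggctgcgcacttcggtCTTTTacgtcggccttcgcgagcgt
SNHG7, chr9:136728160-136728229, minus strand: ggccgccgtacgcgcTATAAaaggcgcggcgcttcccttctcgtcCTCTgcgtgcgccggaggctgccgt
SNHG12, chr1:28581849-28581918, minus strand: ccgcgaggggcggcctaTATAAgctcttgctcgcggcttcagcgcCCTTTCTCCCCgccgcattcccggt
SNHG16, chr17:76557719-76557788, plus strand: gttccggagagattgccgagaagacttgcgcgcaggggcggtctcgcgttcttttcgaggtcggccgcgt
GAS5, chr1:173869021-173869090, minus strand: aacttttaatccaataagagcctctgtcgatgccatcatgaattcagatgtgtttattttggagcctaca

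These features were looked for after the sequences had been seen. Of the 8 starts, 6 lay on a C, against 15% of 27305 promoters. A C that opened a run of at least 5 pyrimidines was present in ZFAS1, SNHG5 and SNHG12, 3 of 8, against 4.04% of all promoters. Only the RefSeq start shown was scored, which for GAS5 lies upstream of the GENCODE start. For ZFAS1 and SNHG12 it is an inner start, so their TOP calls do not describe the outer start of the gene. A TOP tract at another start of a gene would be missed. The letters TATAA stood on the host strand in the given stretch of ZFAS1, SNHG5, SNHG7, SNHG8 and SNHG12, 5 of 8, against 4.42% of all promoters in the same stretch. In the whole window, from 250 bases before the start to 50 after it and on both strands, CACGTG was found in SNHG7 only (7.43% of all promoters), the pattern of GAAA, any 2 bases and GAAA in 0 of 8 (3.65%) and CGGAAG in SNHG12 only (19.9%). These are matches of letters in these windows and no measure of binding.

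IRF1, the targeted gene, had normalized counts of 785 and 738 in the sh-NC libraries and of 430 and 432 in the sh-IRF1 libraries, so that 56.6% of the control level remained (log2 fold change -0.82, Benjamini-Hochberg adjusted p = 1.69e-10 from limma). MYC, an activator of many genes of ribosome production, had 14198 and 14561 in sh-NC and 7380 and 7348 in sh-IRF1 (log2 fold change -0.97, adjusted p = 1.03e-29 from limma). The libraries held between 17635908 and 18695337 reads in genes. A normalized count is the reads of a gene over the size factor of its library, and it is close to a read in all 4. All 10 myeloid markers were detected in every library, with FLT3 and CEBPA the highest. By limma 4 of them were called higher in sh-IRF1 and 5 lower, beside 20.3% and 21.9% of all genes tested. Their log2 fold changes ran from -1.42 in MPO to 0.85 in LYZ. Of 14 markers of other cell types, 7 had a row. Their summed level was 81 and 93.1 CPM in sh-NC and 207 and 206 CPM in sh-IRF1, of which PECAM1, also made by myeloid cells, took the largest part. The B cell marker CD79A had 50.3 and 43.1 normalized counts in sh-NC and 190 and 250 in sh-IRF1 (log2 fold change 2.20, limma adjusted p = 4.46e-12), while COL1A1 and ALB had normalized counts of at most 4.97. The part of these differences in the results below was not tested.

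IRF1 knockdown was accompanied by lower levels of 4 of the 10 host genes, SNHG1, SNHG8, ZFAS1 and SNHG16, at an adjusted p under 0.05 from limma. Of all genes tested, 21.9% were called lower by the same rule. Of the 10, 0 were called higher by limma, where the share among all genes was 20.3%. At an unadjusted p under 0.05 limma gave 0 higher and 5 lower, the fifth being SNHG5, where 23.9% and 25% of all genes were higher and lower. By edgeR 0 were higher and 4 lower, beside 20.6% and 21.5% of all genes, and by DESeq2 0 were higher and 4 lower, beside 16.0% and 18.0%. Leaving out 1 library at a time, limma called between 3 and 6 of the hosts lower, the 6 without sh-NC replicate 2. When hosts with over 10% of their exonic bases shared with other genes were left out, 0 of the remaining 3 were lower, and when bases shared with snoRNA genes were not counted, 1 of the remaining 4 was, SNHG1. Over the 10 hosts the log2 fold change had a median of -0.22, beside -0.0019 over all genes tested. Of the 10 values 9 were below 0, beside 7088 of the 14120 genes tested. Leaving out 1 library, the median was -0.13 without sh-IRF1 replicate 2, -0.15 without sh-NC replicate 1, -0.25 without sh-IRF1 replicate 1 and -0.33 without sh-NC replicate 2. In 6 of the 10 both sh-IRF1 libraries lay below both sh-NC libraries, which was so for 35.0% of all genes tested. The reads of the 10 genes summed to 415 and 382 CPM in sh-NC and to 337 and 333 CPM in sh-IRF1. In bulk RNA, fewer cells that make a transcript and less of it in each cell cannot be told apart.

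**Figure D1:**
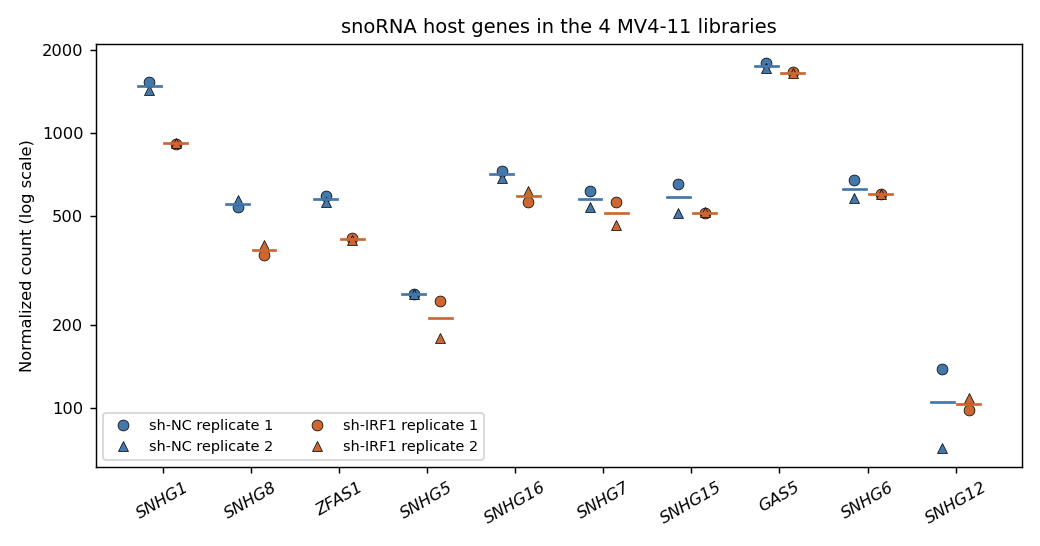
Normalized counts (log axis) of the 10 snoRNA host genes in the 2 sh-NC libraries (blue) and the 2 sh-IRF1 libraries (orange), with circles for replicate 1, triangles for replicate 2 and a line at each group mean, in order of fold change. The groups are apart in SNHG1, SNHG8, ZFAS1, SNHG5, SNHG16 and GAS5, and they overlap in the other 4.

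SNHG1 (ENSG00000255717), the host of 8 snoRNAs named as box C/D, lies on the minus strand of chromosome 11 from 62851978 to 62855953 (GENCODE 44, GRCh38). Its normalized counts were 1529 and 1430 with sh-NC and 913 and 914 with sh-IRF1. The groups were far apart, and the knockdown libraries were nearly equal. The mean fell from 1480 ± 70.5 to 914 ± 0.949 (n = 2 libraries in each group, SD), which left 61.8% of the control level and gave a log2 fold change of -0.69 with a standard error (SE) of 0.0651 (95% interval -0.82 to -0.56, limma adjusted p = 1.67e-12). This was the largest decrease of the 10. It was also among the 2 members with a log2 fold change below -0.5 at an adjusted p under 0.05, a class that held 7.56% of all genes tested.

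SNHG1 starts 51 bases from SLC3A2, which is read in the opposite direction and encodes the heavy chain of several amino acid transporters. SLC3A2 had 9501 and 9251 normalized counts in sh-NC and 7797 and 7642 in sh-IRF1. It fell as well, but to 82.3% of the control level, with a log2 fold change of -0.28 (SE 0.0315, limma adjusted p = 2.74e-10). Of the exonic bases of SNHG1, 15.4% are shared with other genes, and without snoRNA genes the share is 0%.

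SNHG8 (ENSG00000269893), the host of SNORA24, lies on the plus strand of chromosome 4 from 118278703 to 118285316. Its normalized counts were 535 and 571 in sh-NC and 361 and 391 in sh-IRF1. Both knockdown libraries were below both controls, and the gap between the groups was wider than that within either. The mean fell from 553 ± 25.2 to 376 ± 21.0 (n = 2 libraries in each group, SD), a log2 fold change of -0.56 (95% interval -0.76 to -0.35, SE 0.102, limma adjusted p = 1.18e-05). SNHG8 shares 37.6% of its exonic bases with PRSS12, a protease gene on the opposite strand. PRSS12 had only 8 and 19 reads in sh-NC and 38 and 26 in sh-IRF1. The part of reads from the shared exons in either value was not tested.

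ZFAS1 (ENSG00000177410), named for its place antisense to the start of ZNFX1 and host of the SNORD12 group, lies on the plus strand of chromosome 20 from 49278178 to 49299600. It had 590 and 560 normalized counts in sh-NC and 414 and 407 in sh-IRF1. The groups did not overlap, and replicates were close in each. The mean fell from 575 ± 21.3 to 410 ± 5.06 (n = 2 libraries in each group, SD), leaving 71.4% of the control level, with a log2 fold change of -0.49 (95% interval -0.68 to -0.29, SE 0.0977, limma adjusted p = 5.77e-05).

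ZFAS1 overlaps ZNFX1 on the opposite strand, and ZNFX1 was higher. ZNFX1, which encodes a helicase-like sensor of viral RNA and starts 248 bases from the GENCODE start of ZFAS1, had 1247 and 1304 normalized counts in sh-NC and 1439 and 1586 in sh-IRF1. It rose by a log2 fold change of 0.24 (SE 0.0615, limma adjusted p = 0.00105), and it shares 249 exonic bases with ZFAS1, or 3.0% of the exonic bases of ZFAS1. The library kit named in the labels does not mark strand, so reads of antisense partners cannot be told apart from those of the hosts where exons overlap.

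SNHG16 (ENSG00000163597), the host of SNORD1A, SNORD1B and SNORD1C, lies on the plus strand of chromosome 17 from 76557727 to 76670985. Its normalized counts were 726 and 685 in sh-NC and 560 and 617 in sh-IRF1. The groups did not overlap, but the distance between the nearest libraries of the groups was only somewhat wider than that within the sh-IRF1 pair. The mean fell from 706 ± 29.1 to 588 ± 40.0 (n = 2 libraries in each group, SD), a log2 fold change of -0.26 (95% interval -0.44 to -0.089, SE 0.0866, limma adjusted p = 0.0118). This call was lost without sh-NC replicate 1 (adjusted p = 0.0922) and without sh-IRF1 replicate 1 (adjusted p = 0.161), and it held in the other 13 of 15 alternatives, whose adjusted p ran from 0.00848 to 0.0397. Of its exonic bases, 28.5% are shared with an opposite-strand gene listed by identifier only, which had at most 4 reads in a library.

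**Figure D2:**
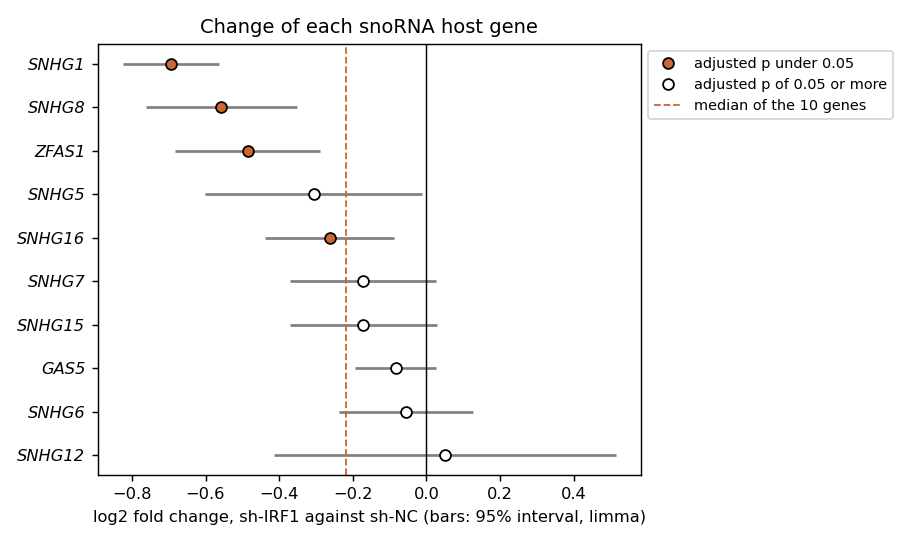
Log2 fold change of each host gene, sh-IRF1 against sh-NC, from limma over 4 libraries, with its 95% interval as a bar and filled points for an adjusted p under 0.05. The intervals of SNHG1, SNHG8, ZFAS1, SNHG16 and SNHG5 lie below 0, and the dashed line marks the median of -0.22.

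The other 6 hosts did not pass the test. Their 95% intervals use the spread that limma shares over genes, and they are not adjusted for the number of genes tested. SNHG5 (ENSG00000203875), the host of SNORD50A and SNORD50B, lies on the minus strand of chromosome 6 from 85650491 to 85678932. It had 260 and 261 normalized counts in sh-NC and 246 and 180 in sh-IRF1. The controls were nearly equal while the knockdown libraries stood apart from each other. Its log2 fold change was -0.31 (95% interval -0.60 to -0.011, SE 0.147, limma adjusted p = 0.0894). Without sh-IRF1 replicate 1 the value was -0.53 (adjusted p = 0.0227), and without sh-IRF1 replicate 2 it was -0.082, so its size rests on the knockdown library that is used.

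GAS5 (ENSG00000234741), also known as a decoy for the glucocorticoid receptor, lies on the minus strand of chromosome 1 from 173858559 to 173868882 and had the highest normalized count of the 10 and the most snoRNAs. It had 1786 and 1715 normalized counts in sh-NC and 1665 and 1640 in sh-IRF1. Both knockdown libraries were lower, by little. The log2 fold change, -0.083 (95% interval -0.19 to 0.027, SE 0.0547, limma adjusted p = 0.229) did not pass in any of 15 alternatives, and the interval does not reach the sizes seen in SNHG1, SNHG8 or ZFAS1. ZBTB37, a zinc finger gene that starts 800 bases from GAS5 in the opposite direction, had 404 and 369 normalized counts in sh-NC and 498 and 468 in sh-IRF1, a rise of 0.32 on the log2 scale (adjusted p = 0.0103 from limma). GAS5-AS1 had between 5 and 17 reads in each library.

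SNHG15 (ENSG00000232956), the host of SNORA9, lies on the minus strand of chromosome 7 from 44983019 to 44986961. It had 652 and 513 normalized counts in sh-NC and 509 and 517 in sh-IRF1. One control library stood apart from the other 3 libraries, which were alike. The log2 fold change was -0.17 (95% interval -0.37 to 0.028, adjusted p = 0.165 from limma), and it was 0.0020 without sh-NC replicate 1 and -0.35 (adjusted p = 0.00704) without sh-NC replicate 2. SNHG7 (ENSG00000233016), the host of SNORA17A and SNORA17B, lies on the minus strand of chromosome 9 from 136721366 to 136728184. It had 615 and 537 normalized counts in sh-NC and 561 and 464 in sh-IRF1, with overlapping groups. Its log2 fold change was -0.17 (95% interval -0.37 to 0.027, adjusted p = 0.162 from limma). With each library left out it ran from -0.31 to -0.035, and it passed only without sh-NC replicate 2 (-0.27, adjusted p = 0.0446). DIPK1B, which shares 30.3% of the exonic bases of SNHG7 on the opposite strand, had 170 and 242 normalized counts in sh-NC and 112 and 97.4 in sh-IRF1 (log2 fold change -0.95, adjusted p = 3.04e-05 from limma).

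SNHG6 (ENSG00000245910), the host of SNORD87, lies on the minus strand of chromosome 8 from 66920561 to 66926398. It had 673 and 578 normalized counts in sh-NC and 602 and 599 in sh-IRF1, so the knockdown libraries lay between the controls. Its log2 fold change was -0.055 (95% interval -0.24 to 0.13, adjusted p = 0.659 from limma). It shares 58.9% of its exonic bases with MCMDC2, a gene of meiotic recombination on the opposite strand, which had between 79 and 98 reads in each library. SNHG12 (ENSG00000197989), with the fewest reads of the 10, lies on the minus strand of chromosome 1 from 28578538 to 28583132. It had 138 and 71.9 normalized counts in sh-NC and 98.5 and 109 in sh-IRF1. The controls differed 1.93-fold from each other. Its log2 fold change of 0.051 (95% interval -0.41 to 0.51, adjusted p = 0.882 from limma) has the widest interval of the 10, and changes within it were not detectable at this depth and spread. The direction was not settled, since the mean normalized count went the other way, from 105 to 104. TRNAU1AP, with which it shares 8 exonic bases, had a log2 fold change of -0.19 (adjusted p = 0.33).

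**Figure D3:**
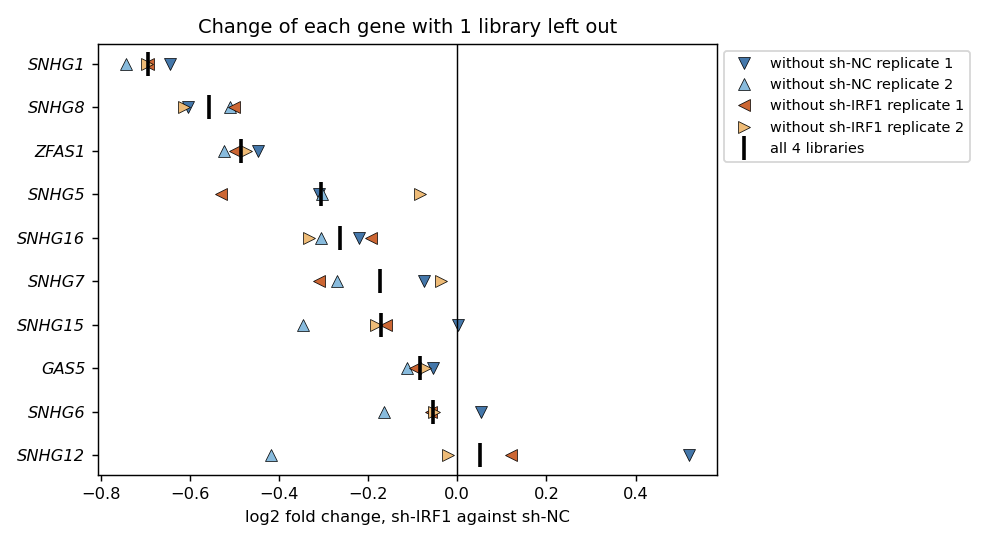
Log2 fold change of each host gene with all 4 libraries (black bar) and after leaving out 1 library at a time (triangles), from limma. SNHG1, SNHG8 and ZFAS1 stay between -0.74 and -0.45 in every case, while SNHG12 runs from -0.42 to 0.52 and the values of SNHG6 and SNHG15 cross 0 without sh-NC replicate 1.

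Per kilobase of annotated exon, SNHG1 had the highest level in the sh-NC libraries, with 385 and 360 normalized counts per kilobase, followed by GAS5 with 362 and 348. These 2 overlapped. SNHG6 came next with 266 and 229, then SNHG15 with 165 and 130, SNHG16 with 126 and 119 and SNHG7 with 126 and 110, and only SNHG16 and SNHG7 overlapped among these 4. SNHG8 (81 and 86.3), ZFAS1 (70.9 and 67.3), SNHG12 (32.5 and 16.9) and SNHG5 (20.6 and 20.7) were lower, and SNHG12 and SNHG5 overlapped. In the sh-IRF1 libraries GAS5 led with 338 and 332 normalized counts per kilobase, and SNHG1, with 230 in each, came after SNHG6 with 238 and 237. The length is the union over all annotated transcripts, from 2527 bases for SNHG6 to 12604 for SNHG5, so the level per kilobase is understated where many of the annotated exons are rarely used.

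By symbol, 4 of the 37 hosted snoRNAs could be matched to a row of the table, and the others were not analysed here. SNORD12B, in ZFAS1, had 14 and 7 reads in sh-NC and 13 and 23 in sh-IRF1 and passed the filter (log2 fold change 0.66, standard error 0.581, adjusted p = 0.384 from limma). Its groups overlapped, while those of its host did not. SNORD12C, SNORD99 and SNORD1B had at most 6 reads in a library. The same library kit selects polyadenylated RNA, so reads in such rows need not come from mature snoRNAs.

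Among the other non-coding snoRNA hosts, SNHG14, SNHG29, SNHG4, EPB41L4A-AS1 and SNHG3 fell, 5 of the 16 tested of 21 listed, and 0 were called higher by limma (1 at an unadjusted p under 0.05, 1 by edgeR and 0 by DESeq2). Their median log2 fold change was -0.26. The share lower was 31.25%, beside 21.9% of all genes tested, and the share higher 0%, beside 20.3%. SNHG14, the long host of the imprinted snoRNA clusters next to SNRPN, was the only gene of that list called with a log2 fold change beyond 0.5, with 1498 and 1417 normalized counts in sh-NC and 891 and 855 in sh-IRF1 (log2 fold change -0.74, standard error 0.066, adjusted p = 3.79e-13 from limma). This is close to SNHG1 in size, and the difference between them was not tested. SNHG19, with at most 17 reads in a library, had a log2 fold change of -0.97 that did not pass (limma adjusted p = 0.247). SNHG14 shares 11.5% of its exonic bases with other genes.

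Protein-coding snoRNA hosts were lower more often than higher. By limma, 21.9% of all genes tested were lower and 20.3% higher. Of 24 ribosomal protein genes that host snoRNAs, 22 (91.7%) were lower and 0 higher by limma. At an unadjusted p under 0.05, by edgeR and by DESeq2 the count higher was also 0. Their median was -0.22 on the log2 scale. RPL7A had 18996 and 18214 normalized counts in sh-NC and 12795 and 12482 in sh-IRF1 (log2 fold change -0.56, adjusted p = 4.87e-22 from limma). Of 30 other coding hosts, 16 (53.3%) were lower and 5 (16.7%) higher, with a median of -0.18. TOMM20, a receptor of the mitochondrial outer membrane, fell by 1.47 on the log2 scale, and NCL, the nucleolar protein nucleolin, by 0.49. TNPO2, an import receptor, and CHD8, a chromatin remodeler, rose by 0.25 and 0.21. The median of the 10 non-coding hosts, -0.22, lies among those of the host lists.

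**Figure D4:**
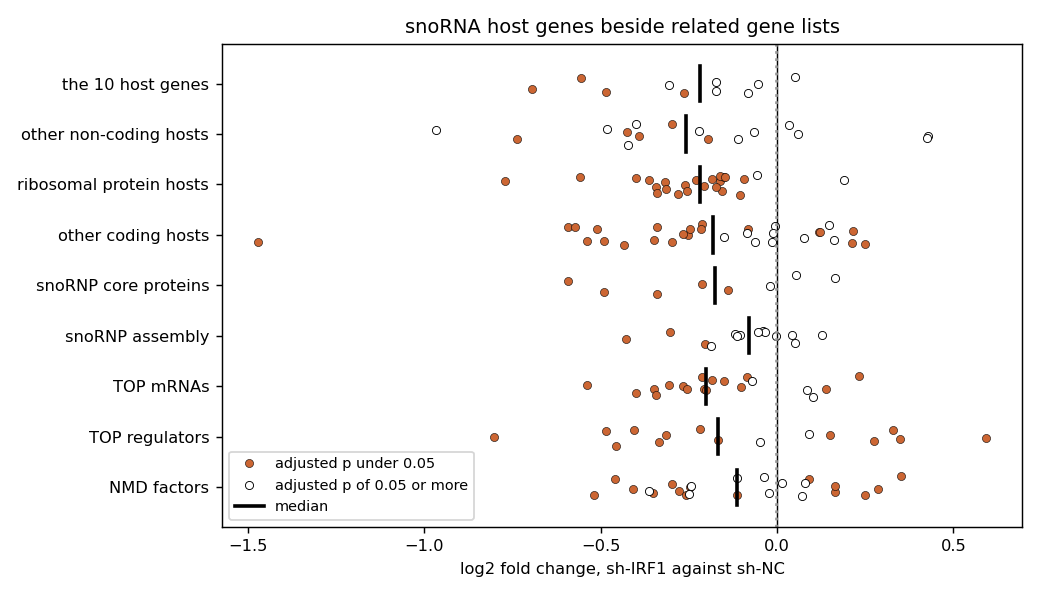
Log2 fold change of each tested gene, sh-IRF1 against sh-NC, in the 10 snoRNA host genes and in 8 related lists, with filled points for an adjusted p under 0.05 from limma, a black bar at each median and a dotted line at the median of all genes tested. Every list median lies below 0, from -0.26 in the other non-coding hosts to -0.078 in the assembly factors of snoRNPs.

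All 8 core proteins of snoRNPs, the particles that snoRNAs form, were tested, and 5 were lower and 0 higher by limma (1 higher at an unadjusted p under 0.05, 0 by edgeR and 0 by DESeq2). Of all genes tested, 21.9% were lower and 20.3% higher by limma, beside 62.5% and 0% of these 8. The 4 core proteins of the box C/D class all fell. NOP56 had 3585 and 3399 normalized counts in sh-NC and 2343 and 2286 in sh-IRF1 (log2 fold change -0.59, adjusted p = 2.21e-15 from limma), and NOP58 had a log2 fold change of -0.49 (adjusted p = 1.84e-11). FBL, the methyltransferase fibrillarin, had -0.14 (adjusted p = 0.00245) and SNU13 had -0.21 (adjusted p = 0.00149). Of the box H/ACA class, the pseudouridine synthase DKC1 fell by 0.34 (adjusted p = 1.26e-08), while NHP2 (0.16), NOP10 (0.053) and GAR1 (-0.019) had adjusted p of at least 0.0887. SNU13, FBL, NHP2, NOP10, GAR1 and DKC1 are named after their values were seen. Of 14 assembly factors 3 were lower and 0 higher by limma (0 at an unadjusted p under 0.05, 0 by edgeR and 0 by DESeq2), led by NOLC1 (log2 fold change -0.43) and PIH1D1 (-0.30). The share lower was 21.4%, near that of all genes tested.

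The lists of decay factors, of TOP mRNAs and of their regulators each held genes called lower and genes called higher by limma. Of all genes tested, 21.9% were lower and 20.3% higher. Of 24 factors of NMD and linked decay, 6 (25%) were higher and 9 (37.5%) lower, and their median was -0.11 on the log2 scale. UPF2, a core NMD factor, rose by 0.35, while PNRC2, a decapping adaptor, fell by 0.52 and the release factor ETF1 by 0.41. Of 19 non-ribosomal TOP mRNAs tested of 20 listed, 14 (73.7%) were lower and 2 (10.5%) higher, with a median of -0.20. TPT1 fell by 0.54 and PABPC1, the poly(A)-binding protein, by 0.31, while the intermediate filament gene VIM rose by 0.23 and FAU by 0.14, the last with overlapping groups. Of 15 regulators of TOP mRNAs 8 (53.3%) were lower and 5 (33.3%) higher. LARP4 fell by 0.80 and EIF4EBP1 by 0.41, and TSC1, an inhibitor of mTORC1 signaling, rose by 0.59 and EIF4EBP2 by 0.33. TSC2 (0.35), RHEB (0.27) and MTOR (0.15) rose as well. EIF4E (-0.48), TIAL1 (-0.46), MLST8 (-0.33), TIA1 (-0.31), CNBP (-0.22) and LARP4B (-0.17) were also called lower. LARP1 was not called (-0.049, limma adjusted p = 0.189). These regulators, from TSC2 to LARP1, were named after their values were seen. The activity of mTORC1 was not measured. DKC1 and NOP56 are in the lists of coding hosts and of core proteins, and EEF1B2, EEF2, RACK1 and TPT1 in those of coding hosts and TOP mRNAs.

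Centred on the mean over the 4 libraries, the median log2 profile of the 10 hosts was 0.21 and 0.051 in the sh-NC libraries and -0.071 and -0.15 in the sh-IRF1 libraries. The 5 tested genes nearest to it by Euclidean distance were EEA1 (0.0201), NOL4L (0.0228), MBIP (0.0254), CAMKK2 (0.0274) and SELENOS (0.0330). Likeness over 4 libraries is a description only.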

How the data were processed

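RNA of 4 MV4-11 libraries (2 sh-NC, 2 sh-IRF1) was sequenced by a service company. Per the labels, the submitters' processing notes name HISAT2 2.0.5 and hg38. The counting tool, annotation and use of strand are not given in the sources used here. The values the authors deposited are a normalized signal, the gene's reads over a size factor for its library. In all 4 columns 100% of values were whole multiples of 1 step (within 0.001 of a read), so reads were recovered. There were 0 other columns of per-sample values. Symbols matched 23456 of 23622 identifiers.

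The libraries were compared with limma (3.58.1, R 4.3.3, trend and robust) on log2(value + 1), a scale that understates changes of low genes. The fit took the 14120 genes that reached 10 in 2 or more libraries, with Benjamini-Hochberg adjustment over all of them. An exact two-sided permutation test of 2 against 2 libraries cannot give a p below 0.33, so calls rest on the spread that limma shares over genes. edgeR (4.0.16) and DESeq2 (1.42.0) on recovered reads, other scalings, filters and pseudocounts, a replicate block and leaving out each library were alternatives. Scripts were tested on simulated data. Replicates differed beyond sampling noise (chi-square per gene 2.52 in sh-NC and 2.37 in sh-IRF1).

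Coordinates, exon unions and overlaps came from GENCODE 44 on GRCh38, and snoRNA positions and promoters from RefSeq on GRCh38.p14. The members and lists were chosen with earlier results of these data known, and lists were written from general knowledge. Named genes were the members, their nearest opposite-strand start within 2000 bases and genes sharing their exonic bases, IRF1 and MYC, and in each list the 2 smallest p in each direction (for the other non-coding hosts, those called beyond 0.5), hosted snoRNAs with at least 10 reads in a library, and the 5 genes nearest to the median profile of the hosts. Some genes that this rule names are not reported here. Others were named after their values were seen.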

Additional observations from a re-analysis of the deposited data

How the results depend on the processing

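Of 150 values of single host genes under the alternatives, 139 kept their direction and their side of the threshold. SNHG1, SNHG8 and ZFAS1 passed in all 15 alternatives each. The count of hosts called higher stayed at 0. The count called lower, 4, was 2 at a log2 fold change beyond 0.5, 0 when members with over 10% shared exonic bases were left out, which leaves GAS5, SNHG12 and SNHG15, and 1 when bases shared with snoRNA genes were not counted, an alternative chosen after seeing the data. It ran from 3 to 6 with each library left out, and the 6 came without sh-NC replicate 2, where SNHG7 and SNHG15 passed. The median of the hosts then ran from -0.33 to -0.13. SNHG12 changed sign with edgeR (-0.015) and DESeq2 (-0.022) and ran from -0.42 to 0.52 with each library left out, SNHG6 from -0.16 to 0.054 and SNHG15 from -0.35 to 0.0020. The causes were not tested. The replicate block left 4 hosts lower with a median of -0.22 and changed no call of a host, and same-numbered libraries did not deviate together (correlation -0.015), so numbers were not taken as pairs.

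Among the lists, the other non-coding hosts had 1 gene higher with upper-quartile scaling, total-count scaling, a filter at 50 and edgeR. The snoRNP core proteins had 1 higher with total-count scaling. The TOP mRNAs had 4 higher with total-count scaling and 1 without robust shrinkage or with DESeq2. The other coding hosts had 3 higher without a filter and with DESeq2. With each library left out, the counts higher ran from 0 to 1 for the other non-coding hosts, 2 to 5 for the other coding hosts, 3 to 5 for NMD factors and 1 to 3 for TOP mRNAs, and the lowered core proteins ran from 3 to 5. Total-count scaling moved the median over all genes to 0.042, with 3433 genes higher and 2645 lower against 2861 and 3092.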
